A study of Homo sapiens with 8 samples.

Results

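The Sprouty and Spred genes encode feedback inhibitors of receptor tyrosine kinase signalling, and 7 of them were examined here: SPRY1, SPRY2, SPRY3, SPRY4, SPRED1, SPRED2 and SPRED3. They were chosen by gene symbol, with earlier results of these data known. All 7 were present among the 37441 genes of the count table, and all 7 passed the filter of at least 10 counts summed over the libraries, as 18203 genes did. The 8 libraries came from 2 non-small cell lung cancer cell lines, NCI-H1581 and NCI-H1703, which respond to inhibition of the fibroblast growth factor (FGF) receptors. Each line was sequenced as sensitive cells and as a variant made resistant to CPL304110, an FGF receptor inhibitor. There were 2 biological replicates of each of the 4 variants, and every value below has n = 2 libraries per variant unless stated otherwise. Each line had 1 resistant variant, and its replicates were repeated cultures of it. The SE and p-values below therefore describe spread between cultures and not between separate selections for resistance. NCI-H1581R had been selected from 50 nM up to a final 2.5 µM of the inhibitor and NCI-H1703R from 50 nM up to 5 µM, over 4 to 6 months. NCI-H1581 and NCI-H1581R were kept in DMEM/F12 and NCI-H1703 and NCI-H1703R in RPMI 1640, both with serum, so the culture medium and the cell line cannot be told apart. Cells were harvested 24 h after a change of medium. Whether that medium held the inhibitor, and whether a resistant variant was 1 clone or a mixed population, is not given in the sources used here.

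Activated FGF receptors signal through the docking protein FRS2, the adaptor GRB2 and the exchange factor SOS to RAS, which turns on the RAF, MEK and ERK kinases. Sprouty and Spred proteins act back on this route. Sprouty proteins are tyrosine phosphorylated after stimulation, can bind GRB2, and limit the activation of RAS and ERK, whereas Spred proteins bring the RAS inactivator neurofibromin (NF1) to the plasma membrane. Transcription of several of these genes is itself raised by ERK, so that their transcripts are widely used as a readout of ERK pathway output. In bulk RNA, less transcript per cell and fewer cells that hold the transcript cannot be told apart.

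The libraries held 33800389 to 40031710 estimated counts. All 6 epithelial markers examined were detected in each variant, but they were low beside the mesenchymal marker VIM, whose mean was 2852 to 6404 CPM, the count scaled to library size by the trimmed mean of M-values (TMM). The summed epithelial level was 77.8 to 78.4 CPM in NCI-H1703 and 10.02 to 11.4 CPM in NCI-H1703R, and was 23.2 to 23.3 CPM in NCI-H1581 and 15.7 to 17.1 CPM in NCI-H1581R. Most of the NCI-H1703 sum was KRT18, at a mean of 64.9 CPM. EPCAM went the other way between the sensitive lines, at 14.5 CPM in NCI-H1581 and 0.456 CPM in NCI-H1703. The summed level of 4 squamous markers was 7.49 to 8.01 CPM in NCI-H1581 and 34.4 to 39.0 CPM in NCI-H1581R, but 38.2 to 38.5 CPM in NCI-H1703 and 0.793 to 1.504 CPM in NCI-H1703R. Different genes made up these sums, mostly TP63 in NCI-H1581R (29.5 CPM) and SOX2 in NCI-H1703 (37.6 CPM). Mean KRT5 and KRT6A were under 1 CPM in every variant. The sum of 3 adenocarcinoma markers was 15.6 to 17.5 CPM in NCI-H1581 and 41.5 to 61.5 CPM in NCI-H1581R, and 1.97 to 2.60 CPM in NCI-H1703 and 1.96 to 2.06 CPM in NCI-H1703R. Nearly all of the NCI-H1581R sum was NKX2-1, at 49.8 CPM, while mean SFTPB went from 2.01 CPM in NCI-H1581 to 1.20 CPM in NCI-H1581R. Of 3 mesenchymal markers, VIM was lower in both resistant variants, FN1 went from a mean of 1.02 to 832 CPM in NCI-H1581R, and CDH2 from 49.4 to 1.12 CPM in NCI-H1703R. Of 6 markers of other cell types, CD3E and HBB had no counts in any library, and CD68 was the only one above 1 CPM. The part of these marker differences in the results below was not tested. The 2 libraries of NCI-H1581R differed from each other more than those of any other variant, with a chi-square per degree of freedom of 96.8 against 23.3 to 31.9.

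The 7 genes lie on 7 different chromosomes. The promoter sequences of SPRY1, SPRY2 and SPRY4 are shown here because these were the 3 members that differed most between sensitive and resistant NCI-H1703 cells. Each is the 250 bases before the transcription start in the RefSeq annotation of GRCh38.p14, 5′ to 3′ on the strand of the gene. Capitals mark matches to 4 short motifs searched on both strands: CCGGAA, the core bound by ETS factors; TGANTCA, the AP-1 site; TGACG, a CRE half-site; and GGCGGG, the SP1 box. A match on the other strand shows as the reverse complement, and no 2 matches overlap.
SPRY1 (chr4:123396545-123396794, plus strand): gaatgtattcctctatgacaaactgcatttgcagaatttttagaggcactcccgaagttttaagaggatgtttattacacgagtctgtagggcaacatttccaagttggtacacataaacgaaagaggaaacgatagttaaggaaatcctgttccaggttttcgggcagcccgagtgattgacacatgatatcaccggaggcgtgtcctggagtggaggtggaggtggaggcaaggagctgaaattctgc
SPRY2 (chr13:80341127-80341376, minus strand): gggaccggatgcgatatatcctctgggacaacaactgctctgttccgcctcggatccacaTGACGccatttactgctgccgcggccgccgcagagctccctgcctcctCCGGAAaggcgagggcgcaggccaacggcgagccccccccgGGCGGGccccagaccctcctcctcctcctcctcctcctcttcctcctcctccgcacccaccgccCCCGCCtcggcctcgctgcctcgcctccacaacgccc
SPRY4 (chr5:142324248-142324497, minus strand): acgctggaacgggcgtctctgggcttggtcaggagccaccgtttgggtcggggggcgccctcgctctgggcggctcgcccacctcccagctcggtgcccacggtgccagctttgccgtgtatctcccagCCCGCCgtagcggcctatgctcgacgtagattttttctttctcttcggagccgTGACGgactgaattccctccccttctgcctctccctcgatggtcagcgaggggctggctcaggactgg
These 3 sequences differed in composition. The SPRY1 window was 45.6% G and C, held 8 CpG dinucleotides and had no match to any of the 4 motifs. The SPRY2 window was 70.4% G and C with 23 CpG, and had an ETS core that begins at position -142 from the start, a CRE half-site and 2 SP1 boxes. The SPRY4 window was 65.6% G and C with 22 CpG, and had a CRE half-site and an SP1 box; its start lies 774 bases from the start of the canonical transcript in GENCODE v44. All 7 members had an entry. The ETS core was found in 1 of 7 members and in 14.5% of 35116 RefSeq promoter windows, and the CRE half-site in 3 of 7 (SPRY2, SPRY3 and SPRY4) and in 21.2%. The SP1 box was found in 5 of 7 members against 42.5% of windows, and the AP-1 site in none of 7 against 6.6%. A match is a string of letters and not a measured binding site.

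SPRY2 was lower in the resistant variant of both lines. SPRY2 (ENSG00000136158, chr13:80335976-80341126, minus strand of GRCh38) encodes an inhibitor that binds the ubiquitin ligase CBL and GRB2. Its level, in CPM scaled over all 8 libraries, was 102 and 106 in NCI-H1581 and 19.2 and 12.7 in NCI-H1581R. In the other line it was 5.35 and 4.34 CPM in NCI-H1703 and 0.555 and 0.211 CPM in NCI-H1703R. The resistant libraries were below both sensitive libraries in each line, and the NCI-H1703R values rest on 21 and 8 counts. The log2 fold change was -2.70 ± 0.23 (SE; adjusted p = 0.000834, edgeR quasi-likelihood test) in NCI-H1581R and -3.62 ± 0.43 (adjusted p = 0.00820) in NCI-H1703R. The difference between the 2 changes was -0.94 on the log2 scale with a 95% interval of -2.27 to 0.38 (adjusted p = 0.389 in edgeR), so that it was not resolved in these libraries. Without NCI-H1703 replicate 1 or 2 the adjusted p of the NCI-H1703R change was 0.134 or 0.114, and without NCI-H1703R replicate 1, which left 8 counts, the log2 fold change was -4.47.

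SPRY1 differed in NCI-H1703 by more than any other member. SPRY1 (ENSG00000164056, chr4:123396795-123403760, plus strand) encodes a Sprouty protein that limits RAS and ERK activation, known for its role in branching of the kidney. Its level was 34.5 and 34.0 CPM in NCI-H1581 and 29.4 and 26.8 CPM in NCI-H1581R. In NCI-H1703 it was 10.1 and 12.4 CPM, and in NCI-H1703R 0.344 and 0.132 CPM. The NCI-H1703R libraries thus held 13 and 5 counts where the sensitive libraries held 375 and 415, with no overlap, and both lay above the 3 counts taken as the detection limit (0.0749 to 0.0888 CPM). The log2 fold change was -5.51 ± 0.39 (SE; adjusted p = 0.00167, edgeR) in NCI-H1703R. In NCI-H1581R it was -0.27 ± 0.17 (adjusted p = 0.389), with a 95% interval of -0.68 to 0.13. The 2 changes differed by -5.26 ± 0.39 (adjusted p = 0.000124, interaction term in edgeR). Because the resistant counts were so few, the size of the change depended on them: it was -6.34 without NCI-H1703R replicate 1 and -4.99 without NCI-H1703R replicate 2, both still past the threshold. The difference between the lines was -6.09 without NCI-H1703R replicate 1.

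SPRY4 was likewise lower with resistance in NCI-H1703. SPRY4 (ENSG00000187678, chr5:142310427-142326455, minus strand) encodes an inhibitor of the route from receptor to RAS that also binds the kinase TESK1. In NCI-H1703 it stood at 97.1 and 87.4 CPM, the highest of the 4 variants, and in NCI-H1703R at 10.5 and 13.5 CPM. In NCI-H1581 it stood at 43.0 and 39.6 CPM, and in NCI-H1581R at 32.8 and 33.0 CPM. The resistant libraries lay below the sensitive ones in both lines, by a wide margin in NCI-H1703 and by a narrow one in NCI-H1581. The log2 fold change was -2.91 ± 0.14 (SE; adjusted p = 0.000662, edgeR) in NCI-H1703R and -0.32 ± 0.16 (adjusted p = 0.301; 95% interval -0.71 to 0.08) in NCI-H1581R. The changes differed by -2.61 ± 0.21 (adjusted p = 0.000183, edgeR).

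SPRY3, the least studied Sprouty gene, was low in all variants. Its level was 1.90 and 3.25 CPM in NCI-H1581 and 1.09 and 0.940 CPM in NCI-H1581R, and it was 4.16 and 2.81 CPM in NCI-H1703 and 3.62 and 3.80 CPM in NCI-H1703R. Neither change passed the threshold in edgeR: the log2 fold change was -1.35 ± 0.47 (SE; adjusted p = 0.138) in NCI-H1581R and 0.11 ± 0.27 (adjusted p = 0.870) in NCI-H1703R. The first of these was called under 3 of 9 other settings, with adjusted p between 0.0512 and 0.0733, and both NCI-H1703R libraries lay between the 2 NCI-H1703 libraries. SPRY3 (ENSG00000168939, chrX:155612572-155782459, plus strand) runs into the pseudoautosomal region shared by X and Y, and 33 of its 10561 exonic bases overlap TMLHE on the opposite strand, a gene with 888 to 1669 counts. Strand use in counting is not given in the sources used here, and the SPRY3 values, of 37 to 154 counts, are therefore uncertain. No other member had an exon that overlapped another gene's.

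**Figure D1:**
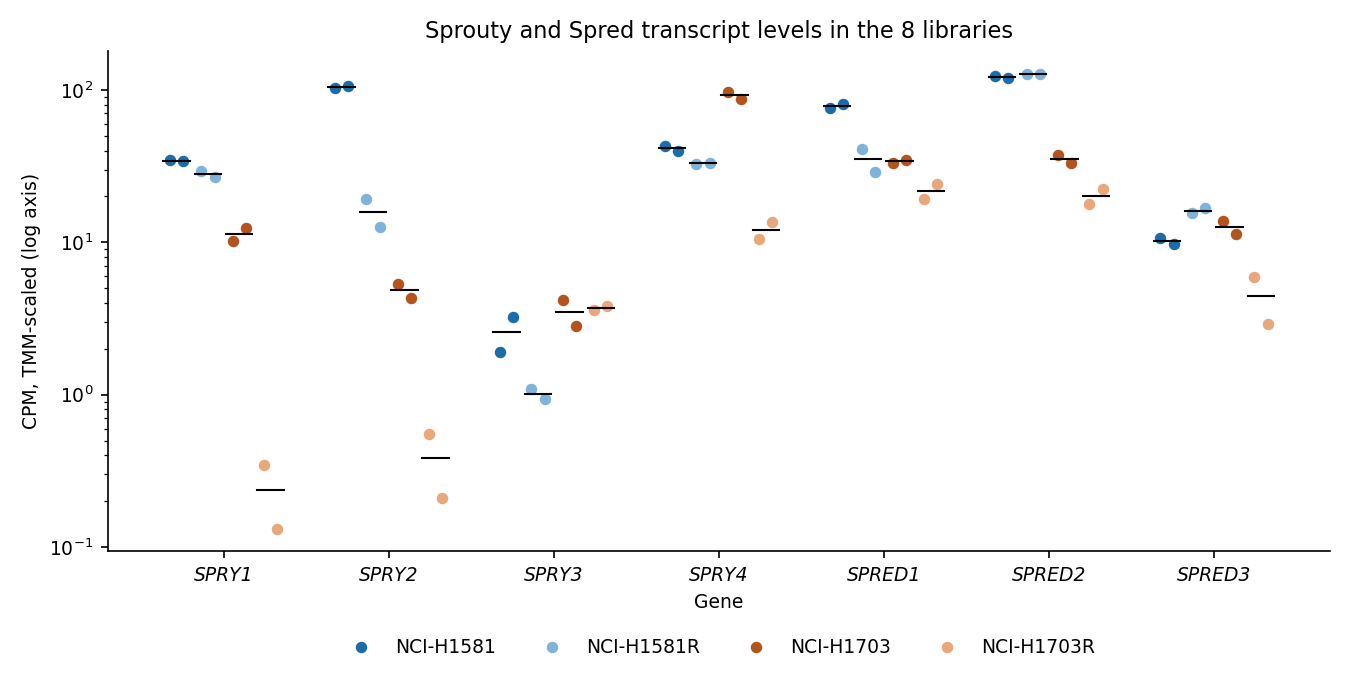
Levels of the 7 genes in each library, in TMM-scaled CPM on a log axis, coloured by cell line variant. Points are the 2 libraries of a variant and black lines their mean. SPRY1 and SPRY2 in NCI-H1703R lie below 1 CPM, and SPRY4 falls from 97.1 and 87.4 CPM in NCI-H1703 to 10.5 and 13.5 CPM in NCI-H1703R.

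Among the Spred genes, SPRED1 was lower with resistance in both lines, by less than SPRY2. SPRED1 (ENSG00000166068, chr15:38252836-38357249, plus strand) encodes a partner of neurofibromin, and inherited loss of SPRED1 causes Legius syndrome. Its level was 76.1 and 80.3 CPM in NCI-H1581 and 40.9 and 29.1 CPM in NCI-H1581R. It was 33.3 and 34.8 CPM in NCI-H1703 and 19.3 and 24.0 CPM in NCI-H1703R. Both resistant libraries lay below both sensitive ones in each line, and the 2 NCI-H1581R libraries were spread more widely than the NCI-H1581 ones. The log2 fold change was -1.15 ± 0.21 (SE; adjusted p = 0.0174, edgeR) in NCI-H1581R and -0.62 ± 0.13 (adjusted p = 0.0444) in NCI-H1703R, and the difference between them was 0.51 with a 95% interval of -0.08 to 1.10 (adjusted p = 0.290). Leaving out NCI-H1581 replicate 1 or 2 raised the adjusted p in NCI-H1581R to 0.120 or 0.155. In NCI-H1703R it rose to 0.239 or 0.278 without NCI-H1703 replicate 1 or 2 and to 0.128 without NCI-H1703R replicate 1. The difference between the lines was 0.78 (adjusted p = 0.0364) without NCI-H1581R replicate 1.

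SPRED2 did not change detectably in NCI-H1581R and was lower in NCI-H1703R. SPRED2 (ENSG00000198369, chr2:65310851-65432637, minus strand) encodes a second partner of neurofibromin. Its level was 123 and 120 CPM in NCI-H1581 and 126 and 128 CPM in NCI-H1581R, so that both resistant libraries lay a few CPM above the sensitive ones. In NCI-H1703 it was 37.2 and 33.2 CPM, and in NCI-H1703R 17.8 and 22.5 CPM. The log2 fold change was 0.07 ± 0.15 (SE; adjusted p = 0.836, edgeR; 95% interval -0.29 to 0.44) in NCI-H1581R and -0.77 ± 0.14 (adjusted p = 0.0282) in NCI-H1703R. The changes differed by -0.86 ± 0.20 (adjusted p = 0.0263, edgeR). That difference had an adjusted p of 0.127 without NCI-H1703 replicate 1 and 0.110 without NCI-H1703R replicate 1. The NCI-H1703R change had an adjusted p of 0.239 or 0.206 without NCI-H1703 replicate 1 or 2.

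SPRED3 moved in opposite directions in the 2 lines. SPRED3 (ENSG00000188766, chr19:38388421-38399587, plus strand) encodes the third Spred protein, whose KIT-binding domain is not functional. Its level was 10.7 and 9.69 CPM in NCI-H1581 and 15.5 and 16.7 CPM in NCI-H1581R. In NCI-H1703 it was 13.9 and 11.3 CPM, and in NCI-H1703R 5.95 and 2.90 CPM. The resistant libraries were thus both higher in the first line and both lower in the second, and the 2 NCI-H1703R libraries, with 225 and 110 counts, were the pair least alike for this gene. The log2 fold change was 0.67 ± 0.20 (SE; adjusted p = 0.0975, edgeR) in NCI-H1581R and -1.48 ± 0.32 (adjusted p = 0.0464) in NCI-H1703R, and the changes differed by -2.17 ± 0.39 (adjusted p = 0.0103). The rise in NCI-H1581R lies close to the threshold of 0.1, and 3 of 9 other settings called it. Its adjusted p was 0.406 or 0.515 without NCI-H1581 replicate 1 or 2 and 0.112 without NCI-H1581R replicate 2. The fall in NCI-H1703R had an adjusted p of 0.305 or 0.250 without NCI-H1703 replicate 1 or 2. Without NCI-H1703R replicate 1 it was -2.08 and the difference between the lines -2.78.

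Counted together, 3 of the 7 genes passed an adjusted p of 0.1 in NCI-H1581R, where 15.1% of all tested genes did. SPRY2 and SPRED1 fell, against 7.44% of all tested genes that fell, and SPRED3 rose. The median log2 fold change of the 7 was -0.32, beside 0.04 over all tested genes. In NCI-H1703R 6 of 7 passed, where 14.7% of all tested genes did. All 6 fell, against 7.67% of all tested genes, and SPRY3 was the exception. The median of the 7 was -1.48, beside a median of 0 over all tested genes. Leaving out NCI-H1581 replicate 1 or 2 left 1 gene called in NCI-H1581R, and leaving out NCI-H1703 replicate 1 or 2 left 2 called in NCI-H1703R, SPRY1 and SPRY4. The change with resistance itself differed between the lines for 4 of 7 genes, SPRY1, SPRY4, SPRED2 and SPRED3, each with a lower value in NCI-H1703, where 15.4% of all tested genes differed. The difference did not pass for SPRY2, SPRED1 and SPRY3, the last at 1.44 with a 95% interval of 0.24 to 2.65 (adjusted p = 0.136, edgeR; 0.0955 without NCI-H1581 replicate 1).

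**Figure D2:**
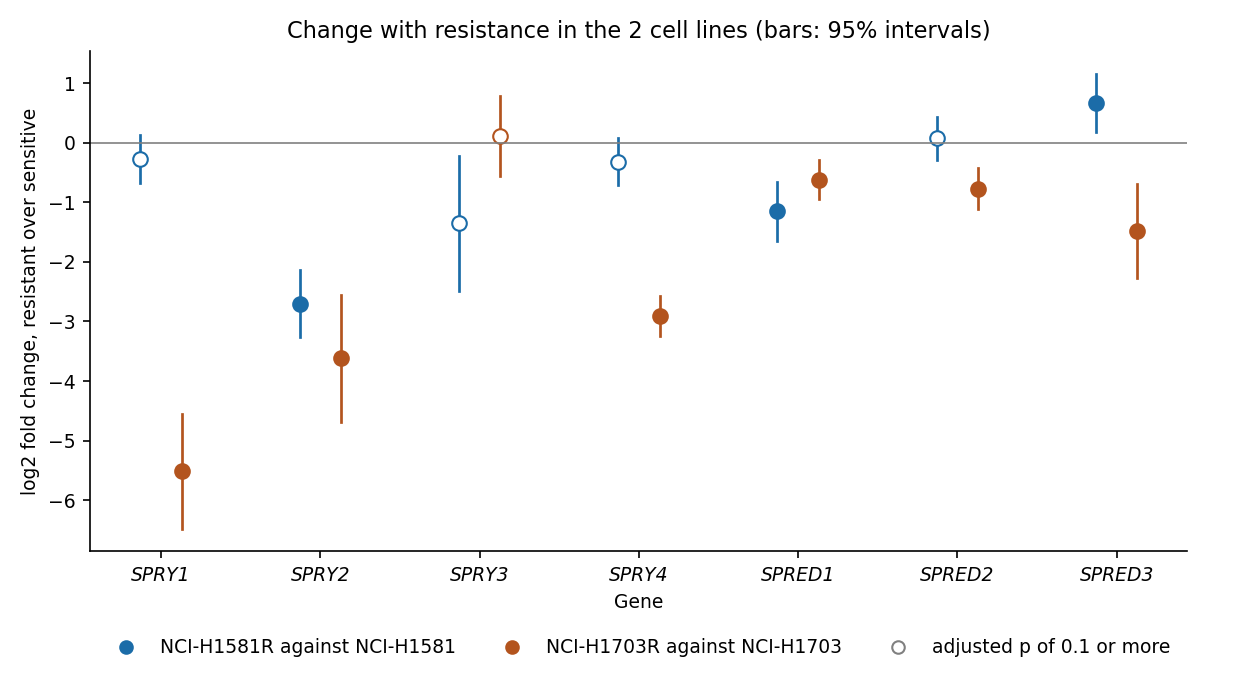
Log2 fold change of each gene, resistant over sensitive, in NCI-H1581 (blue) and NCI-H1703 (brown), with 95% intervals as bars. Filled points passed an adjusted p of 0.1 in edgeR and open points did not. SPRY1 and SPRY4 stand at -5.51 and -2.91 in NCI-H1703R but at -0.27 and -0.32 in NCI-H1581R.

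Ordered by mean CPM, SPRY1, SPRY2 and SPRED1 all ran from NCI-H1581 through NCI-H1581R and NCI-H1703 to NCI-H1703R, with NCI-H1581R and NCI-H1703 overlapping for SPRED1. Of the 7 genes, 5 differed between the sensitive cells of the 2 lines, where 62.9% of all tested genes did. SPRY2, SPRED2, SPRY1 and SPRED1 were lower in NCI-H1703 than in NCI-H1581, with log2 fold changes of -4.42 ± 0.14, -1.79 ± 0.10, -1.61 ± 0.15 and -1.20 ± 0.11 (SE). SPRY4 was higher in NCI-H1703, at 1.16 ± 0.11. SPRED3 at 0.31 ± 0.17 (adjusted p = 0.169, edgeR) and SPRY3 at 0.42 ± 0.37 (adjusted p = 0.368) were not resolved. All 7 differed between the resistant variants, where 52.5% of all tested genes did, and 6 were lower in NCI-H1703R than in NCI-H1581R. The widest gaps were those of SPRY1 at -6.83 ± 0.35 and SPRY2 at -5.33 ± 0.48, which became -7.68 and -6.19 without NCI-H1703R replicate 1. SPRED2 was at -2.62 ± 0.18, SPRED3 at -1.82 ± 0.36 (-2.45 without NCI-H1703R replicate 1) and SPRY4 at -1.42 ± 0.19, so that SPRY4 was higher in the sensitive cells of NCI-H1703 and lower in its resistant cells. SPRY3 alone was higher in NCI-H1703R, at 1.90 ± 0.33. The SPRED1 difference of -0.66 ± 0.23 (adjusted p = 0.0711, edgeR) did not pass without NCI-H1581R replicate 1 (0.124), NCI-H1703R replicate 1 (0.343) or NCI-H1703R replicate 2 (0.135). These comparisons share libraries with those between resistant and sensitive cells and are not separate evidence.

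To compare genes with each other, CPM was divided by the length of the longest annotated transcript. On this scale the summed level of the 7 genes was 99.4 ± 0.139 CPM per kb (SD, n = 2) in NCI-H1581, 59.2 ± 3.12 in NCI-H1581R, 38.8 ± 1.91 in NCI-H1703 and 11.2 ± 1.01 in NCI-H1703R. The 4 variants did not overlap in this sum. With this length the leading gene was SPRY2 in NCI-H1581, with 38.6% ± 0.770 of the sum, and SPRY4 in NCI-H1703, with 44.4% ± 1.14. In both resistant variants it was SPRED2, with 47.7% ± 2.95 in NCI-H1581R and 39.6% ± 2.94 in NCI-H1703R. With the union of exons the same genes led, but with the median transcript length SPRED2 led in all 4 variants, from 37.4% ± 1.21 in NCI-H1703 to 71.0% ± 3.12 in NCI-H1581R, so that the leading gene of the sensitive cells depends on the length used. SPRY3 took under 1% of the sum in NCI-H1581, NCI-H1581R and NCI-H1703, and 3.67% ± 0.205 in NCI-H1703R.

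The 4 Sprouty genes together made up 59.9% ± 0.261 of the sum in NCI-H1581 and 38.7% ± 2.01 in NCI-H1581R. They made up 61.2% ± 0.319 in NCI-H1703 and 25.7% ± 0.0529 in NCI-H1703R. Summed Sprouty level fell from 59.5 to 22.9 CPM per kb in the first line and from 23.7 to 2.89 in the second, whereas the summed Spred level went from 39.8 to 36.3 and from 15.0 to 8.35. In the first line most of the Sprouty fall was SPRY2, from 38.4 to 5.88 CPM per kb. SPRY1 went from 13.1 to 10.8 there and SPRY4 from 7.72 to 6.15. Within the Spred sum of that line SPRED1 went from 10.8 to 4.81, while mean SPRED2 and SPRED3 were higher in NCI-H1581R. The shares, but not their order between sensitive and resistant cells, depended on the length used: with the median transcript length the Sprouty share was 24.2%, 13.4%, 34.4% and 10.3% in NCI-H1581, NCI-H1581R, NCI-H1703 and NCI-H1703R. With 2 libraries per variant, an exact permutation test of a share cannot reach a p below 0.05, and none was run.

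**Figure D3:**
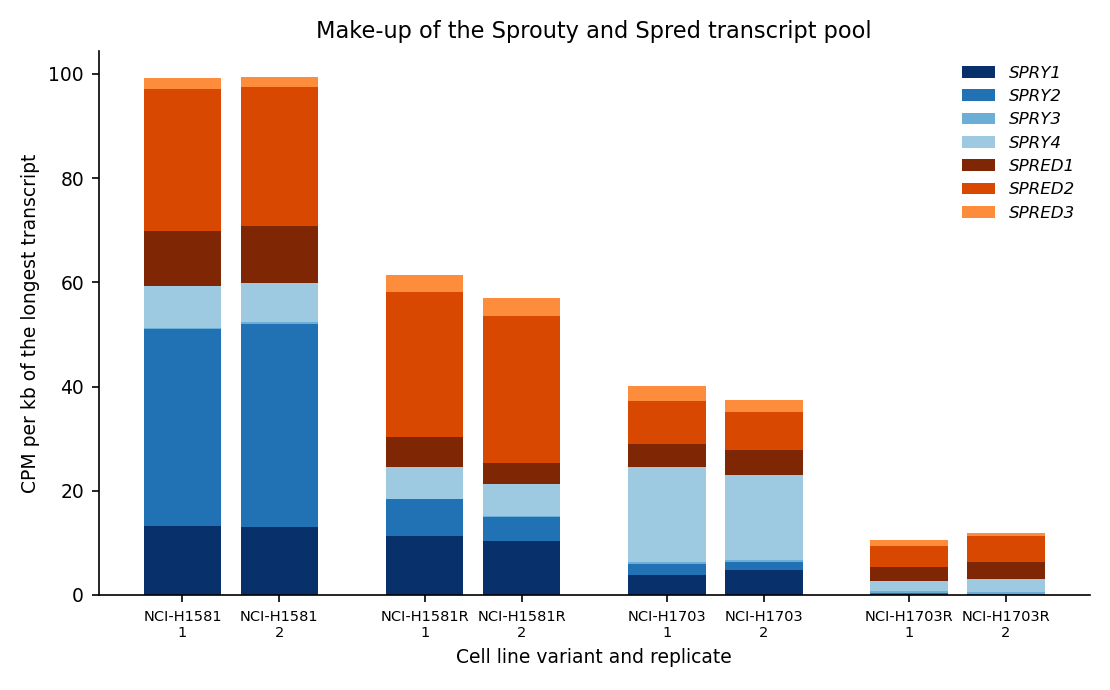
Summed level of the 7 genes in each library, in CPM per kb of the longest annotated transcript, stacked by gene with Sprouty genes in blue and Spred genes in orange. The stack is 99.4 on average in NCI-H1581 and 11.2 in NCI-H1703R, and the blue part shrinks from 59.9% to 38.7% in the first line and from 61.2% to 25.7% in the second. Most of the blue loss in the first line is SPRY2, from 38.4 to 5.88 CPM per kb.

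Genes upstream of the feedback loop changed in both directions. Of 5 FGF receptor genes, FGFR1 and FGFR2 fell in NCI-H1581R, FGFR3 rose and FGFR1 fell in NCI-H1703R, and the medians were -0.49 and -0.16. Among all tested genes, 15.1% passed in NCI-H1581R and 14.7% in NCI-H1703R. FGFR1, the receptor gene known for amplification in squamous lung cancer, had 6982 and 6839 counts in NCI-H1581 and 1017 and 1383 in NCI-H1581R, a log2 fold change of -2.59 ± 0.21 (SE; adjusted p = 0.000629, edgeR). Its log2 fold change in NCI-H1703R was -0.51 ± 0.10 (adjusted p = 0.0320). FGFR2 went from 6319 and 7232 counts in NCI-H1581 to 189 and 38 in NCI-H1581R, and FGFR3 from 2491 and 1852 counts in NCI-H1703 to 13653 and 11077 in NCI-H1703R. Both resistant variants thus held less FGFR1 transcript. FGFR2 was at -0.16 ± 0.66 (adjusted p = 0.940) in NCI-H1703R and FGFR3 at 0.94 ± 0.32 (adjusted p = 0.134) in NCI-H1581R, neither of which passed.

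Of 10 adaptor genes next to the receptor, SOS2 and GAB1 rose in NCI-H1581R, by 1.10 ± 0.27 and 1.47 ± 0.36 on the log2 scale (SE). SHC1 was lower there, at -0.88 ± 0.20. A single adaptor, CRKL, passed in NCI-H1703R, at -0.56 ± 0.09. Beside these, 15.1% of all tested genes passed in NCI-H1581R and 14.7% in NCI-H1703R. The docking protein gene FRS2 did not pass in either line. In the cascade from RAS to ERK, RRAS2, which encodes a RAS-related GTPase, rose by 1.24 ± 0.32 in NCI-H1581R, and SHOC2, a scaffold for RAF activation, by 0.77 ± 0.18. In NCI-H1703R ARAF rose by 0.76 ± 0.09 and RRAS fell, at -1.08 ± 0.11. The MEK genes MAP2K1 and MAP2K2 did not pass in either line.

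Of 13 genes for binding partners and regulators of Sprouty and Spred proteins, 3 rose in NCI-H1581R and 1 fell in NCI-H1703R, with medians of 0.24 and -0.02. CBLB, a ubiquitin ligase related to CBL, rose from 13 and 9 counts in NCI-H1581 to 98 and 141 in NCI-H1581R, a log2 fold change of 3.37 ± 0.55 (SE; adjusted p = 0.0124, edgeR). MKNK1, a kinase that phosphorylates SPRY2, rose by 1.46 ± 0.42 and CSNK1A1 by 0.58 ± 0.16. In NCI-H1703R RASA1, a RAS GTPase-activating protein, was at -0.35 ± 0.09, and DYRK1A was at -3.51 ± 1.29 and did not pass (adjusted p = 0.147). DYRK1A had only 29 and 6 counts in NCI-H1703 and 0 and 3 in NCI-H1703R. NF1, the partner of the Spred proteins, was at 0.44 ± 0.18 in NCI-H1581R (adjusted p = 0.187) and 0.00 ± 0.11 in NCI-H1703R (adjusted p = 1.0), with no call in either line. No partner gene fell in NCI-H1581R, where 7.44% of all tested genes fell. RASA1 was the only one that fell in NCI-H1703R, where 7.67% of all tested genes fell. The share of all tested genes that passed in either direction was 15.1% in NCI-H1581R and 14.7% in NCI-H1703R.

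Other genes whose transcription is driven by ERK moved in both directions. Of 14 such genes outside the family, 13 were tested and IER3 had no counts in any library. In NCI-H1581R 2 rose and 3 fell, with a median of -0.13, and in NCI-H1703R 1 rose and 8 fell, with a median of -1.20, beside medians of 0.04 and 0 over all tested genes, of which 7.44% and 7.67% fell. A difference between the lines was tested gene by gene and not for the list. DUSP6, the phosphatase of ERK, fell in both lines, from 9517 and 11017 counts to 3320 and 2997 in NCI-H1581R and from 250 and 312 counts to 45 and 73 in NCI-H1703R. The ETS factor gene ETV4 fell in NCI-H1703R, from 887 and 842 counts to 66 and 107, and was at 0.27 ± 0.18 (SE; adjusted p = 0.420, edgeR) in NCI-H1581R. CCND1, which encodes cyclin D1, was at -2.55 ± 0.13 in NCI-H1703R and 0.46 ± 0.18 (adjusted p = 0.186) in NCI-H1581R. For ETV4 and CCND1 the changes differed between the lines by -3.68 (adjusted p = 0.000131, edgeR) and -3.03 (adjusted p = 0.000129).

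Some ERK output genes had other patterns. EGR1, an immediate early factor, fell in NCI-H1581R from 1607 and 2351 counts to 59 and 43 and rose in NCI-H1703R from 340 and 335 counts to 1118 and 1546. FOSL1 fell in NCI-H1581R, at -3.05 ± 0.28 (SE), and was at -0.04 ± 0.12 in NCI-H1703R (adjusted p = 0.897, edgeR). PHLDA1 rose in NCI-H1581R, at 1.96 ± 0.25, and fell in NCI-H1703R, at -0.84 ± 0.19. EPHA4 rose in NCI-H1581R, at 3.66 ± 0.69, and was at -1.68 ± 0.65 in NCI-H1703R (adjusted p = 0.184, edgeR). Its counts were low, 5 and 18 in NCI-H1581 and 97 and 208 in NCI-H1581R. They were 18 and 16 in NCI-H1703 and 4 and 7 in NCI-H1703R. The called output genes were thus mostly lower in NCI-H1703R, where 8 fell and 1, EGR1, rose. They had no single direction in NCI-H1581R, where 2 rose and 3 fell. By Western blot, the study saw no difference in ERK level or phosphorylation between either resistant variant and its sensitive cells. It did report less phosphorylation of FGFR and its direct effectors in both resistant variants. The transcripts are therefore not a measure of ERK activity here.

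**Figure D4:**
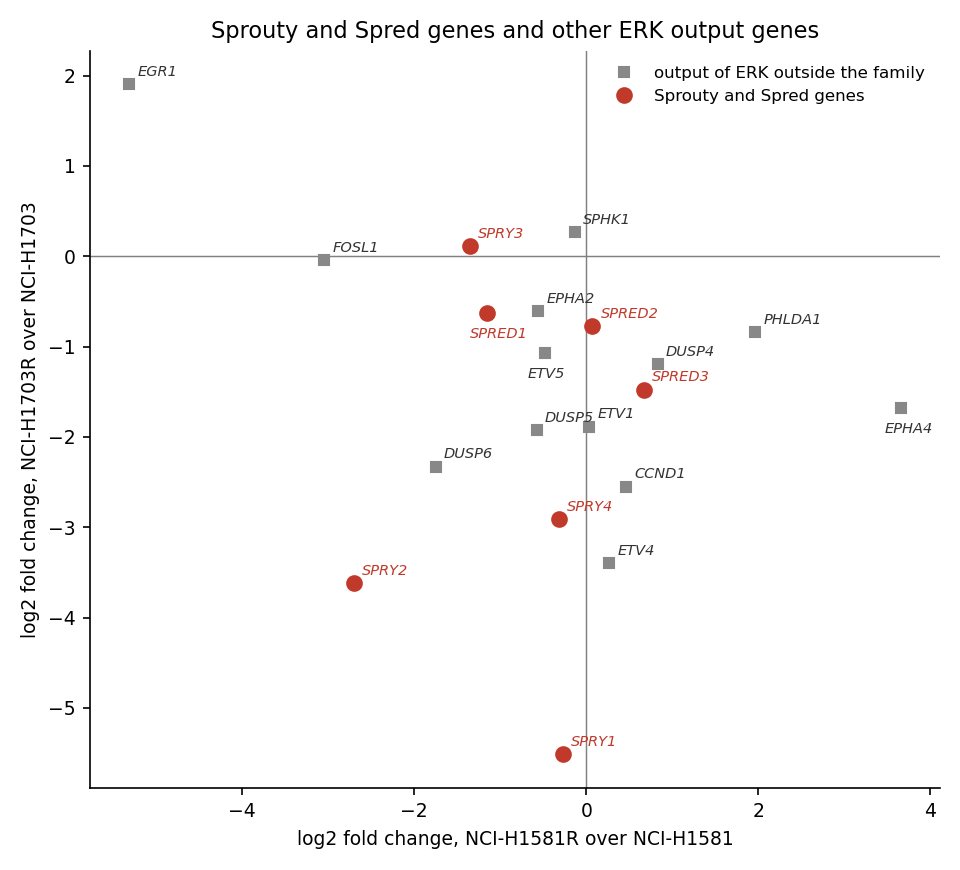
Log2 fold change with resistance in NCI-H1581 (horizontal axis) and NCI-H1703 (vertical axis) for the 7 Sprouty and Spred genes (red circles) and 13 other genes driven by ERK (grey squares). SPRY1, SPRY4, ETV4 and CCND1 lie near 0 on the horizontal axis and between -5.51 and -2.55 on the vertical one, while SPRY2 and DUSP6 are below 0 on both.

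Other inhibitors of receptor tyrosine kinases moved in both directions. Of 14 genes, 1 rose and 3 fell in NCI-H1581R and 3 rose and 2 fell in NCI-H1703R, with medians of -0.14 and 0.01. Among all tested genes, 15.1% passed in NCI-H1581R and 14.7% in NCI-H1703R. IL17RD, also called SEF, an inhibitor of FGF signalling at the receptor, fell in NCI-H1581R from 98 and 163 counts to 34 and 32, and rose in NCI-H1703R from 473 and 353 counts to 734 and 664. LRIG3 did the same, at -4.89 ± 0.34 (SE) and 1.18 ± 0.32. Both differences between the lines passed, at 2.69 (adjusted p = 0.00341, edgeR) for IL17RD and 6.04 (adjusted p = 0.000140) for LRIG3, with a sign opposite to that of SPRY1 and SPRY4. In NCI-H1581R the adaptor gene DAB2 fell, at -3.04 ± 0.76, and ERRFI1, an inhibitor of the EGF receptor, rose by 0.74 ± 0.21. The DAB2 change rests on few counts, 29 and 36 in NCI-H1581 and 2 and 6 in NCI-H1581R. In NCI-H1703R SOCS3 and LRIG1 fell, at -1.39 ± 0.15 and -0.70 ± 0.17, and SH2B3 rose by 0.87 ± 0.09.

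Genes that flank the members were examined because a change shared by a whole stretch of chromosome would appear in them too. Within 2 Mb of SPRY1 12 other genes were tested, none of which passed in either line. Their median log2 fold change was -0.17 in NCI-H1703R, against -5.51 for SPRY1, and no neighbour was lower than SPRY1. The 5 tested genes within 2 Mb of SPRY2 had a median of 0.01 in NCI-H1703R, with none called. In NCI-H1581R their median was -0.66, with 1 higher and 2 lower, against -2.70 for SPRY2. They ranged there from -2.31 for NDFIP2, with a mean of 34.5 CPM, to 5.04 for POU4F1, with a mean of 2.93 CPM. NDFIP2 thus fell by nearly as much as SPRY2. Around SPRY4, 81 tested genes had a median of -0.03 in NCI-H1703R, 10 higher and 5 lower, and 6 of them were lower than SPRY4 itself. These 6 were all clustered protocadherin genes with low means over the 8 libraries of both lines. Their means ran from 0.0484 CPM (PCDHB15) to 1.90 CPM (PCDHGB5), against 44.6 CPM for SPRY4. Another clustered protocadherin gene, PCDHGC3, had a mean of 41.2 CPM and was at -2.60 in NCI-H1703R, close to SPRY4. In NCI-H1581R PCDHGC3 was at -0.53.

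The neighbours of the Spred genes had medians near 0 or above it. Around SPRED1 12 tested genes had a median of 0.36 in NCI-H1581R, 3 higher and 1 lower, and of -0.12 in NCI-H1703R, with 2 lower. Around SPRED2 16 genes had a median of 0.23 in NCI-H1703R, 2 higher and none lower, where SPRED2 was at -0.77. Around SPRED3 92 genes had medians of 0.14 and -0.06 in NCI-H1581R and NCI-H1703R, and 2 of them were lower than SPRED3 in NCI-H1703R. Around SPRY3 56 genes had medians of -0.08 and 0.04. DNA copy number was not analysed here. The study measured it by array hybridisation and reported differences between sensitive and resistant variants. Among these was a lower copy number of FGFR1 in both resistant variants. In NCI-H1581R it reported fewer copies in large parts of chromosomes 2 and 15, which hold SPRED2 and SPRED1. In NCI-H1703R it reported changes in parts of chromosomes 4, 5 and X, which hold SPRY1, SPRY4 and SPRY3. Whether the members lie in those parts was not examined.

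**Figure D5:**
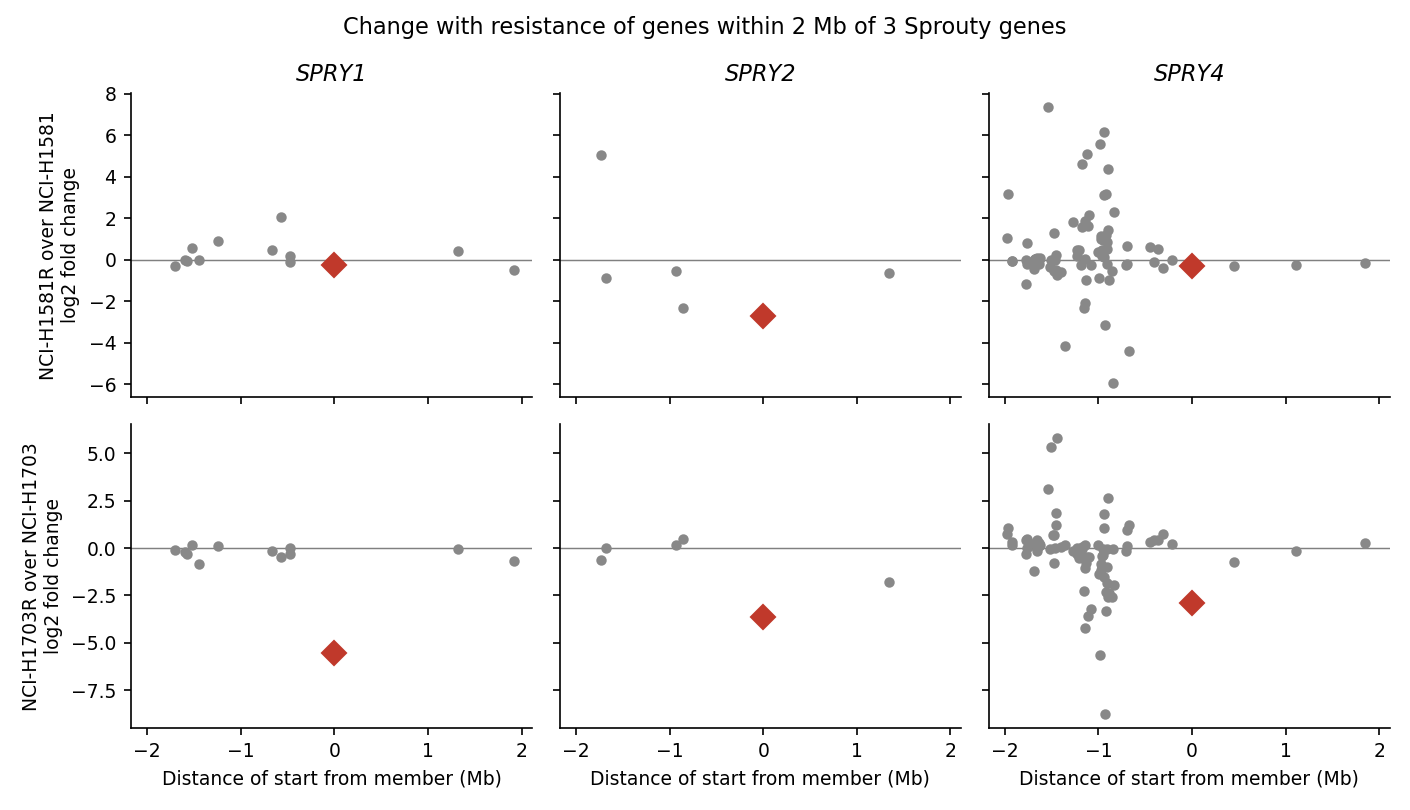
Log2 fold change of the tested genes whose start lies within 2 Mb of SPRY1, SPRY2 or SPRY4 (grey circles) and of these 3 genes themselves (red diamonds), by distance in Mb along the chromosome, in NCI-H1581 (upper row) and NCI-H1703 (lower row). The SPRY1 and SPRY2 diamonds at -5.51 and -3.62 lie below all their neighbours in NCI-H1703, while 6 of 81 neighbours of SPRY4 lie below its -2.91. Those 6 are protocadherin genes with means over the 8 libraries of at most 1.90 CPM. PCDHGC3, with a mean of 41.2 CPM, lies just above SPRY4 in NCI-H1703, at -2.60.

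The genes whose pattern was most like that of a member were sought among 11199 protein-coding genes with at least 10 counts in each library, by Pearson's r over the 8 libraries on log2 CPM centred within each cell line. SPRY1 and SPRY2 had fewer than 10 counts in a library of NCI-H1703R and were left out. These r describe 8 libraries in 2 sets of 4 that share their cell line, and between 62 and 375 genes had an r above 0.9 with any 1 member. The gene most like SPRY4 was PRPF31, a splicing factor gene, with r = 0.998, followed by the zinc transporter gene SLC39A4 with r = 0.996. Both were lower in NCI-H1703R, at -1.37 and -4.92 on the log2 scale. Those most like SPRED2 were NOTUM, with r = 0.986, and ETV4, with r = 0.976, and these 2 stayed close without centring, at 0.997 and 0.983.

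For SPRED1 the 2 closest genes were LSM1 (r = 0.995) and ASH2L (r = 0.994). Both lie on the short arm of chromosome 8, as FGFR1 does, and both fell in both lines, LSM1 at -1.09 and -0.66 and ASH2L at -1.18 and -0.54. Without centring the likeness was gone, with r = 0.00 and -0.02. For SPRED3 they were PRRT3 (r = 0.981) and ENO2 (r = 0.979), with 0.863 and 0.799 without centring. For SPRY3 they were PLAAT3 (r = 0.990) and BCL3 (r = 0.967), neither of which passed in either line, with -0.13 and 0.82 without centring.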

How the data were processed

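RNA sequencing libraries of 8 cultures were analysed. The authors trimmed and quantified reads with cutadapt and Salmon on GRCh38 (hg38), per the labels and the study's methods, and deposited a table of estimated counts, 1 row a gene, as whole numbers. Versions, transcript annotation, count scaling and strandedness are not given in the sources used here. Groups followed the labels. The 7 members, the pathway and marker lists and the tests were chosen with earlier results of these data known.

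Gene symbols and positions were taken from GENCODE v44. Genes whose 8 libraries summed to 10 counts or more were tested with edgeR 4.0.16 in R 4.3.3 (TMM, quasi-likelihood test with bias-adjusted deviances, two-sided), each comparison on its own 4 libraries and the difference between lines on all 8 with an interaction term. P-values were adjusted by Benjamini-Hochberg over all tested genes and called under 0.1, the threshold of the study. The SE is the log2 fold change divided by the square root of F. Replicates of a variant differed by more than sampling noise. The test was checked on simulated counts.

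Members were all named. Of each list, genes called in both lines and at most 3 others by size of change were named. CRKL, ARAF, CSNK1A1, RASA1, CCND1, ERRFI1, SH2B3, LRIG1, FRS2, NF1, MAP2K1 and MAP2K2 were named after their values were seen. Some results of the cascade list are not reported here. Alternatives were DESeq2 1.42.0, RLE factors, 2 other filters, a single fit of all libraries, a threshold of 0.05, leaving out each library, a replicate block, offsets for GC content and length (94.4% of tested genes had both) and, chosen after seeing the data, the older quasi-dispersion method.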

Additional observations from a re-analysis of the deposited data

Results flagged for a closer look

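For 4 of the 7 genes the change with resistance differed between the cell lines by the interaction term of edgeR, as log2 values of NCI-H1703 minus NCI-H1581. The difference was -5.26 for SPRY1 (adjusted p = 0.000124), -2.61 for SPRY4 (adjusted p = 0.000183), -2.17 for SPRED3 (adjusted p = 0.0103) and -0.86 for SPRED2 (adjusted p = 0.0263). Without NCI-H1703R replicate 1 those of SPRY1 and SPRED3 were -6.09 and -2.78. For SPRY1, SPRY4 and SPRED2 the fall passed in NCI-H1703R only, and SPRED3 went up in NCI-H1581R and down in NCI-H1703R. The cause was not tested. The lines also differ in culture medium and in the final inhibitor concentration, 2.5 µM for NCI-H1581R and 5 µM for NCI-H1703R, so that these and the line cannot be told apart.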

How the results depend on the processing

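Of 309 values of the members under alternatives other than leaving out a library, 294 kept their direction and their side of the threshold, 8 lost a call, 5 gained one and 2 reversed. With offsets for GC content and length, the uncalled values of SPRED2 in NCI-H1581R and of SPRY3 in NCI-H1703 against NCI-H1581 became -0.0403 and -0.0344. Of 168 values with a library left out, 146 kept both, 19 lost a call, 2 gained one and 1 reversed. The lone library of an arm was then assumed to vary like the others. SPRY3 in NCI-H1703R ranged from -0.12 to 0.41, the lowest without NCI-H1703 replicate 2. With a library left out, the number of members called was 1 to 3 for NCI-H1581R and 2 to 6 for NCI-H1703R. With at least 10 counts in every library it was 4 of 7 and 4 of 5, and with offsets for GC content and length 4 and 6 of 7, SPRY3 gaining a call in NCI-H1581R.

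Whether replicate numbers pair the cultures is not stated. Replicate differences correlated across 10419 genes at r = 0.25 between NCI-H1581 and NCI-H1581R and at 0.55 between NCI-H1703 and NCI-H1703R. Across the lines, r reached -0.56 between the resistant variants and -0.38 between NCI-H1581R and sensitive NCI-H1703 cells. Sensitive NCI-H1581 cells gave -0.13 with the resistant and 0.03 with the sensitive cells of the other line. Values of similar size but opposite sign thus arose between lines, so r does not show whether the numbers pair the cultures. With the replicate block, 2 members were called in NCI-H1581R (SPRED3 at an adjusted p of 0.1004, edgeR), 6 in NCI-H1703R and 6 between the resistant variants (SPRED1 at 0.154), and no other call changed. The block raised the calls over all genes in NCI-H1703R from 2683 to 6357. A single fit of all libraries gave 4539 and 1730 calls in NCI-H1581R and NCI-H1703R, against 2743 and 2683, and a threshold of 0.05 gave 1793 and 1640. The calls of SPRY1 and SPRY2 in NCI-H1703R rest on 5 to 21 counts a library.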
